A study of Mus musculus with 3 samples.

Results

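The cells described here are the aortic leukocytes that carried transcripts of the proliferation genes Mki67, Top2a, Birc5 and Ube2c. They were chosen by these transcripts: a cell was taken when the 4 genes together gave at least 5 unique molecular identifiers (UMIs, each standing for 1 captured transcript). By this rule 298 of 5348 kept cells were taken (5.57%), out of 8471 cell barcodes in all, and they are called gated cells below. A kept cell had a top hashtag count at least 3 times the second, at most 10% mitochondrial UMIs and at least 3000 gene UMIs. Because the 4 transcripts picked the cells, their levels and those of other cell-cycle genes were not tested between gated and other cells. They are given there as a description. Between groups of mice these genes were tested along with all others.

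The study sorted viable CD45+ cells from the aortas of 10 mice and read their transcripts, surface antibodies and hashtags by CITE-seq in 1 pooled run. Leukocytes in the blood had been labelled by an intravenous antibody before the mice were killed, and were left out by the sort. Of the mice, 5 were Jak2WT (mice 1 to 5) and 5 were Jak2V617F Myel, all on a C57BL/6 background and with no drug treatment. Their age at collection is not given in the sources used here, and the study used both sexes. In Jak2V617F Myel mice LysM-Cre switches on the Jak2V617F allele, a gain-of-function form of the kinase JAK2, in cells that express lysozyme M, which are mainly myeloid cells, so lymphocytes carry it only as far as that promoter was active. Mice 7 and 9 had an aneurysm seen by eye, and mice 6, 8 and 10 had none and are called the dilation group. Each mouse was told apart by its hashtag, so the mouse was the replicate. The sort was adjusted to give about the same number of cells of either genotype, so shares within a mouse were compared and not cell numbers.

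Before a cell divides it copies its DNA in S phase, with replication factors such as PCNA and a burst of histone synthesis, and then passes through G2 phase and mitosis, when topoisomerase, kinesins, condensins and the spindle checkpoint are made. Tissue macrophages can keep their number by dividing in place, dendritic cells and monocytes come mainly from dividing bone marrow precursors, and developing T cells divide in the thymus. Mki67 encodes a coat protein of mitotic chromosomes, Top2a the topoisomerase that untangles sister DNA, Birc5 survivin of the chromosomal passenger complex, and Ube2c a ubiquitin-conjugating enzyme of the anaphase-promoting complex.

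The sequences before these 4 genes are shown because their transcripts picked the cells. Each is the 120 bases before the gene's start in RefSeq (GRCm38.p6) or GENCODE vM21, whichever lies further upstream, written 5′ to 3′ along the gene's strand. Capitals mark the CCAAT box and the cell-cycle homology sequences TTTGAA and TTCGAA, on either strand.
Mki67, chr7:135716380-135716499, minus strand: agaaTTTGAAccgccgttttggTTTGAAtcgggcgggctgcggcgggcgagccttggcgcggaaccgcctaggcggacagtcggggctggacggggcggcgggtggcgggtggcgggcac
Top2a, chr11:99024190-99024309, minus strand: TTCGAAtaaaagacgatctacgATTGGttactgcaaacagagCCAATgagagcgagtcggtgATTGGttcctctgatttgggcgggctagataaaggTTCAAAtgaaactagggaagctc
Birc5, chr11:117849117-117849236, plus strand: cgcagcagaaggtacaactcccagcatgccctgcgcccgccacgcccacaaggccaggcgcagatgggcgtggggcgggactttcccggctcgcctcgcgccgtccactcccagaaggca
Ube2c, chr2:164769778-164769897, plus strand: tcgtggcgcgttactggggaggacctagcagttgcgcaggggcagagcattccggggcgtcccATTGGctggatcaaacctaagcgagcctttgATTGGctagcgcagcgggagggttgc

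In the longer window of 250 bases before the RefSeq start, CCAAT was found 6 times before Top2a, 6 times before Ube2c, 3 times before Mki67 and 0 times before Birc5. Of 12 named cell-cycle genes searched, 11 had an entry in the RefSeq promoter table. CCAAT was in 9 of these 11 windows, against 33.8% of 32851 promoter windows of the same length, and TTTGAA in 4 of 11, against 16.0%. TTCGAA was in 1 of 11 windows (1.34% of all), and the E2F sequences TTTGGCGC and TTTCCCGC were in 0 (0.417% and 0.895% of all). Some windows reach into an annotated exon on the same strand: in the 7 windows with no exon bases CCAAT was in 6 and TTTGAA in 3. These matches describe the letters in the windows and were not tied to any factor.

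All 10 mice held gated cells. The share was 5.69% in mouse 1 (16 of 281 kept cells), 4.56% in mouse 2 (16 of 351), 7.14% in mouse 3 (35 of 490), 4.44% in mouse 4 (6 of 135) and 4.10% in mouse 5 (24 of 586), all Jak2WT. Among Jak2V617F Myel mice it was 3.89% in mouse 6 (15 of 386), 4.38% in mouse 8 (17 of 388) and 7.20% in mouse 10 (59 of 820) of the dilation group, and 4.94% in mouse 7 (46 of 932) and 6.54% in mouse 9 (64 of 979) with aneurysm. The highest share of either genotype was near 7%, in mice 3 and 10, and the genotypes overlapped over nearly their whole range. Gated cells were deeper than the rest, with a median of 21278 gene UMIs against 9721.5. After every cell was thinned to 3000 UMIs and the gate lowered to 2 UMIs, 263 cells passed (4.92%).

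**Figure D1:**
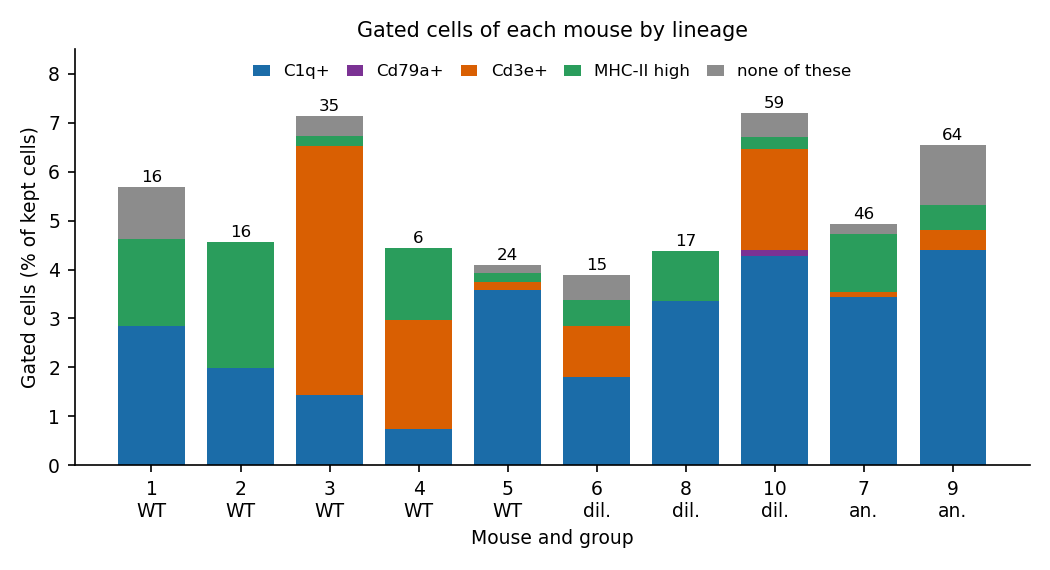
Gated cells of each mouse as a percentage of its kept cells, coloured by lineage, with the number of gated cells above each bar (WT, Jak2WT; dil., dilation; an., aneurysm). Totals run from 3.89% in mouse 6 to 7.20% in mouse 10, and Cd3e+ cells make up most of mouse 3.

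The gate of 5 UMIs sat on a falling tail. Of the kept cells, 4124 had no UMI of the 4 genes, 89 had 3 UMIs and 53 had 4, just outside the gate, and 34 had 5 and 20 had 6, just inside. Gated cells had a median of 20 of these UMIs and at most 215, and 98 had at least 50. The gate therefore took cells of very different levels.

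Mki67, at 724 ± 135 UMIs per 1000000 UMIs (CPM, mean ± SD over 10 mice) in gated cells, was at 13.7 ± 3.57 CPM in the other kept cells. Top2a was at 640 ± 250 against 6.16 ± 0.793 CPM, Birc5 at 271 ± 96.6 against 1.33 ± 0.763 CPM and Ube2c at 310 ± 163 against 2.92 ± 0.539 CPM. In every mouse each of the 4 was higher in gated cells, which were picked on their sum. Pclaf, a PCNA-binding factor that the rule did not use, was at 525, 419, 736, 889 and 75.6 CPM in gated cells of mice 1 to 5. It was at 596, 336, 363, 469 and 392 CPM in mice 6 to 10, and between 0.757 and 5.97 CPM in the other kept cells. Its level in mouse 5 was the lowest by a wide margin. At least 5 Pclaf UMIs were counted in 138 gated cells and in 1 other kept cell.

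The label of proliferating cells did not hold for all of them. Mki67 was counted in 288 of the 298 gated cells (96.6%), but Top2a in 206 (69.1%), Birc5 in 184 (61.7%) and Ube2c in 168 (56.4%). In 70 gated cells (23.5%) every UMI of the rule came from Mki67, and 0 of these 70 had a Pclaf UMI. Their summed S phase, G2 and mitosis transcripts (82 genes, without the 4 of the rule) had a median of 5.49 per 10000 UMIs, with quartiles of 4.27 and 8.55. The other kept cells had a median of 6.85, with quartiles of 4.46 and 10.1. By these transcripts the 70 Mki67-only cells resembled cells outside the gate. A further 208 gated cells (69.8%) had at least 3 UMIs of Top2a, Birc5 and Ube2c, and are called multi-gene cells. Their median was 100 per 10000 UMIs, with quartiles of 67.3 and 137, and 183 of them (88.0%) had a Pclaf UMI. The remaining 20 had 1 or 2 UMIs of Top2a, Birc5 and Ube2c, and 2 of them had a Pclaf UMI. Their median of 6.30, with quartiles of 4.95 and 24.9, was also near that of the other kept cells. This division was made after the values were seen. The lineage shares, the Lyve1 and Ccr2 shares and the antibody medians are given for the multi-gene cells too.

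**Figure D2:**
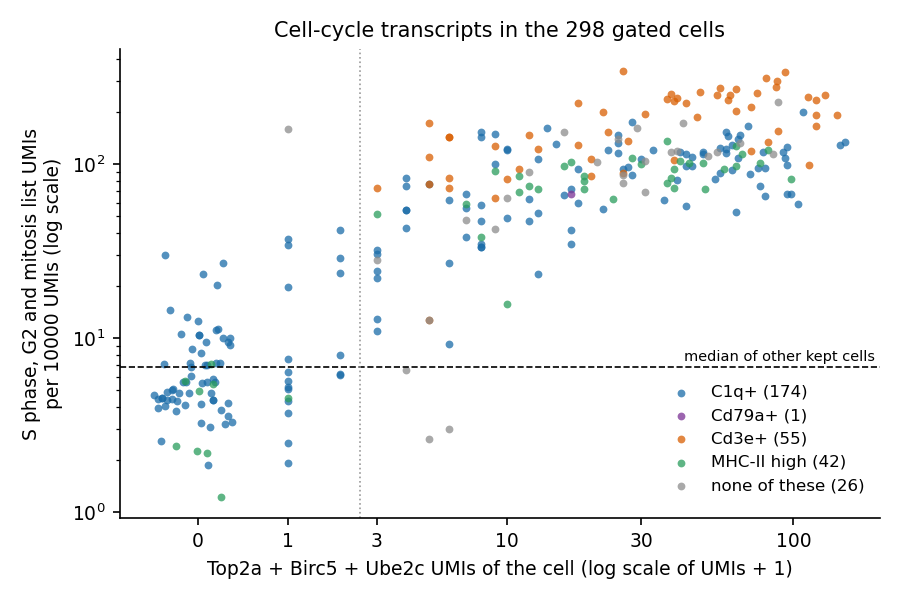
Each point is 1 of the 298 gated cells, with its UMIs of Top2a, Birc5 and Ube2c (log scale of UMIs + 1, points at 0 spread sideways) against its S phase, G2 and mitosis UMIs per 10000 UMIs (log scale), coloured by lineage. The 70 cells at 0 lie around the dashed median of the other kept cells (6.85), and most of the 208 cells right of the dotted line lie above it, with a median of 100.

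Mki67-only cells were not spread evenly. They numbered 62 among C1q+ cells and 8 among MHC-II high cells, and 0 among Cd3e+ cells. By mouse they numbered 4, 4, 0, 0 and 8 in mice 1 to 5 and 2, 16, 7, 12 and 17 in mice 6 to 10. Each had to hold at least 5 Mki67 UMIs to enter, so their Mki67 level was set by the gate. They had a median of 7 Mki67 UMIs. The hashtag caller HTODemux named 30% of Mki67-only cells and 20.2% of multi-gene cells as doublets, and within the C1q+ lineage 32.3% and 33.0%.

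Nearly all genes of the cell-cycle lists had a higher mean level in gated cells. Of the replication and S phase list, 36 of 36 genes were higher, with a median ratio of 9.48 of mean CPM over mice. The highest mean CPM after Pclaf were those of Pcna (the sliding clamp of DNA polymerase, 343 ± 126 against 97.7 ± 12.6 CPM), of Dut (which keeps uracil out of DNA, 253 ± 193 against 20.9 ± 4.94 CPM) and of Slbp (which binds histone mRNA, 182 ± 99.0 against 69.8 ± 8.28 CPM). Of the G2 phase and mitosis list, 45 of 46 genes were higher, with a median ratio of 60.3. The condensin genes Smc4 and Smc2 were at 348 ± 131 against 83.3 ± 28.9 CPM and at 252 ± 74.6 against 19.96 ± 2.89 CPM. Cks2, a subunit of cyclin-dependent kinases, was at 256 ± 114 against 54.7 ± 16.8 CPM, and the kinetochore gene Cenpf at 215 ± 104 against 2.21 ± 0.962 CPM. The G2 and mitosis genes thus had larger ratios than the S phase genes, and the 4 genes of the rule belong to G2 and mitosis themselves.

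Chromatin and histone genes followed the same direction. All 12 genes of the chromatin list were higher, with a median ratio of 5.83, led by H2afz (a histone variant, 2611 ± 819 against 671 ± 179 CPM) and Hmgb2 (a DNA-bending protein, 2077 ± 891 against 267 ± 43.0 CPM). Next were Hmgb1 (its relative, 1485 ± 749 against 437 ± 50.1 CPM) and Tubb5 (a tubulin of the spindle, 1330.5 ± 396 against 233 ± 28.0 CPM). All 16 replication-dependent histone genes were higher, with a median ratio of 30.5. Hist1h1b, a linker histone, was at 892 ± 562 against 12.6 ± 7.03 CPM, and Hist1h2ap at 760 ± 447 against 16.1 ± 11.3 CPM. Hist1h2ae, like it a core histone, was at 610 ± 381 against 10.3 ± 6.52 CPM and Hist1h4d at 409 ± 168 against 38.3 ± 16.1 CPM. These histone mRNAs mostly lack a poly(A) tail and the histone genes share sequence, so their counts in a poly(A) library are uncertain.

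Entry and brake genes of the cycle differed less. Of 10 G1 genes, 8 were higher, with a median ratio of 2.04. Among the D cyclins, which start the cycle, Ccnd1 was at 150 ± 85.7 against 108 ± 35.8 CPM and Ccnd3 at 132 ± 63.4 against 85.4 ± 15.4 CPM, but Ccnd2 at 96.2 ± 81.3 against 138 ± 31.3 CPM. Their kinase partner Cdk4 was at 108 ± 42.0 against 42.5 ± 5.80 CPM. Of 16 inhibitors, 11 were higher, with a median ratio of 1.22. Cdkn1a, which encodes the kinase inhibitor p21, was at 719 ± 267 against 458 ± 178 CPM, whereas the antiproliferative genes Btg2 and Btg1 were at 820 ± 229 against 935 ± 137 CPM and at 677 ± 216 against 972 ± 175 CPM, and Klf2, a factor of quiescent cells, at 226 ± 126 against 488 ± 129 CPM. Of 20 growth factor receptor and JAK-STAT genes, 5 were higher, with a median ratio of 0.852. Pim1, a kinase gene induced by STAT5, was at 655 ± 233 against 593 ± 159 CPM, the inhibitor gene Socs3 at 185 ± 79.4 against 219 ± 57.7 CPM and Csf2ra, a GM-CSF receptor chain, at 171 ± 53.2 against 129 ± 23.9 CPM. Jak2 itself was at 48.4 ± 25.7 against 56.3 ± 13.1 CPM, and Csf1r, the receptor for the macrophage growth factor CSF1, at 353 ± 176 against 585 ± 54.2 CPM. Cyclin, inhibitor and receptor levels overlapped between gated and other cells, and lineage differences between the cells enter these values.

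**Figure D3:**
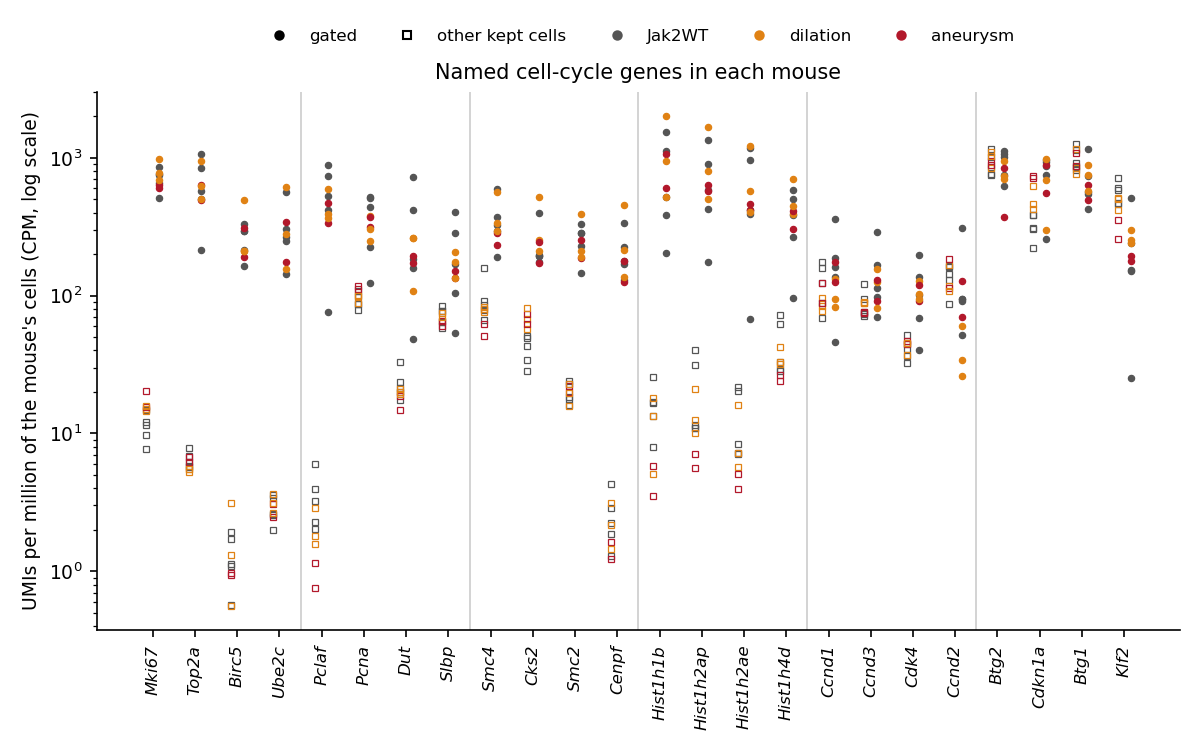
Level of the named cell-cycle genes in each mouse (CPM, log scale) in gated cells (filled circles) and other kept cells (open squares), coloured by group, in the order rule genes, S phase, G2 and mitosis, histones, G1 genes and inhibitors. The levels are apart by 10-fold or more for the rule genes and Pclaf and overlap for cyclins and inhibitors.

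Lineages were read from genes that the gate did not use. C1q+ cells had at least 20 UMIs of C1qa, C1qb and C1qc per 10000, which macrophages make, Cd79a+ cells (B cells) at least 3 Cd79a UMIs, and Cd3e+ cells (T cells) at least 1 Cd3e UMI. MHC-II high cells had at least 100 UMIs of H2-Aa, H2-Ab1, H2-Eb1 and Cd74 per 10000 and fewer than 10 of C1q, as dendritic cells do. The 298 gated cells were 174 C1q+ (58.4%), 55 Cd3e+, 42 MHC-II high, 1 Cd79a+ and 26 of none of these. CD45 itself (Ptprc) was counted in 96.6% of gated and 93.2% of other kept cells. In 13 gated cells the genes of 2 lineages were counted, and HTODemux named 66 gated cells as doublets (22.1%), against 19.3% of the other kept cells. Among gated C1q+ cells the doublet share was 31.0%, and 26.1% among other C1q+ cells.

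B cells were nearly missing among gated cells. In the 10 mice, Cd79a+ cells were between 2.08% and 27.8% of the other kept cells, whereas in 9 mice they were 0% of gated cells and in mouse 10 they were 1.69%. The mean share was 0.169 ± 0.536% against 13.1 ± 7.71% (n = 10), lower in 10 of 10 mice (exact sign-flip permutation test, two-sided, p = 0.00195, the smallest it can give, adjusted p = 0.00977 over 5 lineages). Put the other way, 1 of 607 Cd79a+ cells was gated, or 0.165% (exact 95% interval 0.00417% to 0.914%, which covers counting error only). The single cell had 28391 UMIs, and other Cd79a+ cells were shallow, with a median of 5789. With every cell thinned to 3000 UMIs and a gate of 2 UMIs, 7 of the 607 (1.15%) passed. With the multi-gene cells alone the difference was 12.6 percentage points in the same direction (exact sign-flip permutation test, p = 0.00195).

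MHC-II high cells had a higher mean share of gated cells, but the difference did not pass the adjusted test. They were 31.3%, 56.3%, 2.86%, 33.3% and 4.17% of gated cells in mice 1 to 5 and 13.3%, 23.9%, 23.5%, 7.81% and 3.39% in mice 6 to 10. Over mice they were 19.98 ± 17.2% of gated against 7.95 ± 3.73% of other cells, higher in 8 of 10 mice (exact sign-flip permutation test, p = 0.0449, adjusted p = 0.0749). Cells of none of these lineages were 7.18 ± 7.30% against 13.2 ± 3.76% (exact sign-flip permutation test, p = 0.0293, adjusted p = 0.0732). Without mouse 9 both passed (adjusted p = 0.0456 each, exact permutation test), as did the latter without mouse 1 (adjusted p = 0.0293). Under other settings the MHC-II high difference of 12.0 percentage points ran from 6.89 to 15.8. The difference of −5.99 for none of these lineages ran from −6.80 to −1.86. C1q+ cells (53.7 ± 23.1% against 51.9 ± 8.28%, p = 0.801 by the same exact permutation test) and Cd3e+ cells (18.9 ± 25.0% against 13.9 ± 6.05%, p = 0.488 by the same exact permutation test) had similar means, with a far wider spread among gated cells. The C1q+ difference of 1.84 percentage points turned to −8.16 with the multi-gene cells. The Cd3e+ difference of 5.05 was 1.00 without mouse 3, 1.09 without mouse 4 and 8.29 with the multi-gene cells. Among multi-gene cells, MHC-II high cells were 23.8 ± 22.7% against 7.98 ± 3.77% of the other cells (exact permutation p = 0.0449, adjusted p = 0.112), and cells of none of these lineages 9.73 ± 9.38% against 13.005 ± 3.74% (exact permutation p = 0.283).

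**Figure D4:**
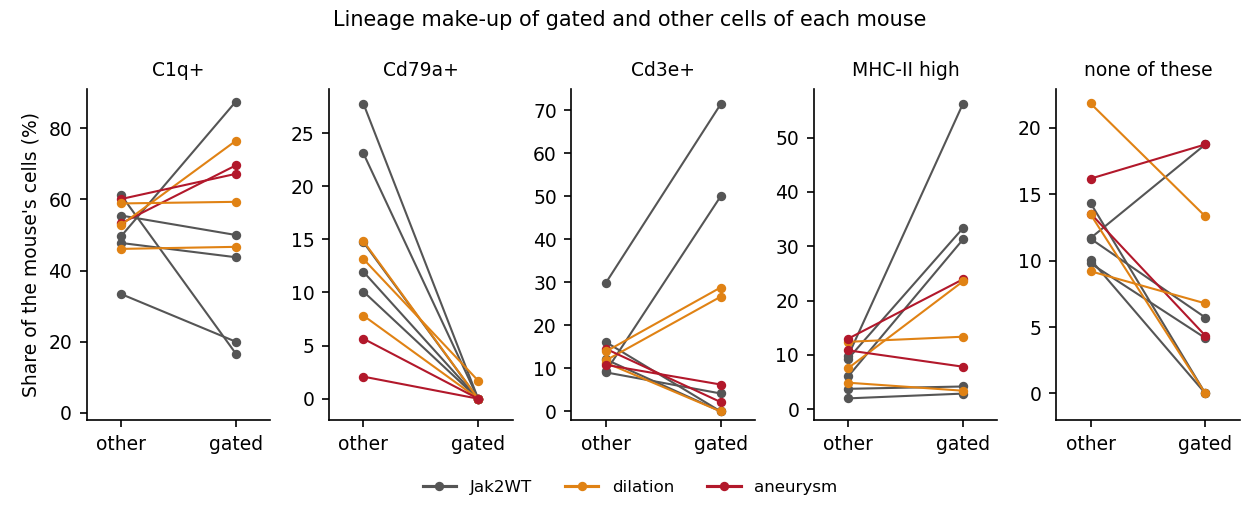
Share of each lineage among the gated and the other kept cells of each mouse (%), with 1 line per mouse coloured by group. Cd79a+ shares fall to 0 in 9 of 10 mice, and Cd3e+ shares of gated cells range from 0 to 71.4%.

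Gated C1q+ cells numbered 174 of 2828 C1q+ cells (6.15%). By mouse they numbered 8, 7, 7, 1 and 21 in mice 1 to 5 and 7, 32, 13, 43 and 35 in mice 6 to 10. Of the 174, 94 were multi-gene cells, so the Mki67-only cells weigh most on this lineage. Csf1r, which macrophages need to live, was counted in 99.4% of gated and 99.2% of other C1q+ cells, against 7.92% of other Cd79a+ and 8.65% of other Cd3e+ cells, at median depths of 5789 and 7281 UMIs. Its pooled level was 636 CPM in gated and 920 CPM in other C1q+ cells, against 22.0 CPM in other Cd79a+ and 15.5 CPM in other Cd3e+ cells.

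Lyve1, a hyaluronan receptor of resident vascular macrophages, was less often detected in gated C1q+ cells. With each cell thinned to 3000 UMIs, a Lyve1 UMI was counted in 19.0% (mouse 5) to 69.2% (mouse 8) of gated C1q+ cells, with a median of 34.9% over 9 mice. Among other C1q+ cells it was counted in 33.9% (mouse 7) to 78.9% (mouse 1), with a median of 65.2%. The mean fell from 65.0 ± 15.9% to 39.4 ± 14.9% (exact sign-flip permutation test, two-sided, p = 0.0156), and it was lower in 8 of 9 mice, the exception being mouse 7 with aneurysm. Without thinning the shares were 33.3% to 76.9% and 41.9% to 90.1%. Free Lyve1 RNA is bounded by the 5.12% of Cd79a+ and 4.96% of Cd3e+ cells with a UMI at the same depth (median depths before thinning 5789 and 7281 UMIs). With the multi-gene cells the shares were 34.5% and 62.5% (p = 0.0312, exact sign-flip permutation test, lower in 6 of 7 mice). The difference missed the threshold in HTODemux singlets and without mice 5 and 10 or mice 3 and 10 (exact permutation p = 0.0625 each), with differences of 20.6 to 23.4 percentage points in the same direction.

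Of the 8 resident macrophage genes, all but Pf4 had a lower mean level in gated C1q+ cells, and Pf4 had nearly the same mean. These levels are means over 9 mice for gated and 10 mice for other C1q+ cells, with no test. Cd163, a scavenger receptor, was at 400 ± 196 against 862 ± 265 CPM, the folate receptor gene Folr2 at 294 ± 155 against 711 ± 201 CPM, and F13a1, a coagulation factor subunit of macrophages, at 916 ± 322 against 1805 ± 450 CPM. Timd4, a receptor of long-lived resident macrophages, was at 88.0 ± 93.3 against 122 ± 46.3 CPM. Cd163, Folr2 and F13a1 means lay apart by more than 1 SD of either kind of cell, and Timd4 overlapped widely. Gas6, a ligand for receptors that take up dead cells, was at 182 ± 78.7 against 376 ± 89.5 CPM and Cbr2 at 452 ± 231 against 743 ± 208 CPM. Pf4, a chemokine gene and the member with the highest CPM, was at 2844 ± 1133 against 2850 ± 587 CPM, so its mean lay within the spread of either kind of cell.

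Ccr2, the chemokine receptor of recruited monocyte-derived cells, did not differ beyond its spread. After thinning, a Ccr2 UMI was counted in 20.9 ± 18.4% of gated and 14.7 ± 11.2% of other C1q+ cells (n = 9, exact sign-flip permutation test, p = 0.391). The difference of 6.22 percentage points was 1.24 without mouse 6, 9.59 without mouse 7 (exact permutation p = 0.0625) and 0.810 in HTODemux singlets. With the multi-gene cells it was 9.64, higher in 5 of 7 mice (exact permutation p = 0.328). Mouse 6 (57.1%) and mouse 9 (48.8%) were far above the other mice among gated cells. Cd79a+ cells gave a background of 3.30% at the same depth.

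The surface antibodies were a second readout that the gate did not use. The mean CD14 antibody count per C1q+ cell was 107, 185, 213, 163, 163, 223, 99.6, 348 and 255 in gated cells of mice 1, 2, 3, 5, 6, 7, 8, 9 and 10. In other C1q+ cells of those mice it was 88.6, 108, 63.8, 111, 95.8, 172, 82.4, 175 and 136. CD14, a co-receptor for lipopolysaccharide, was thus higher in gated cells of each of the 9 mice. The median CD163 antibody count was 53 in gated and 249 in other C1q+ cells, but its mean per mouse was lower in 6 of 9 mice only. Medians were 339.5 against 198 for CD11b, 28 against 9 for CD9 and 29 against 80 for the MHC-II antibody I-A/I-E. The mean I-A/I-E count per mouse was higher in gated cells of 5 of the 9 mice (374 ± 256, n = 9, against 406 ± 184, n = 10), so it had no common direction over mice. The total antibody count was itself higher in gated C1q+ cells, with a median of 2283.5 against 1666.5. As a share of all antibody counts, CD14 was 8.24 ± 3.94% against 5.81 ± 1.93% and higher in 8 of 9 mice, CD9 was higher in 7 of 9 and CD11b in 5 of 9. CD163 was 18.2 ± 7.56% against 26.8 ± 7.68% and lower in 7 of 9 mice. In multi-gene C1q+ cells the medians were 198 for CD14, 69 for CD163, 310.5 for CD11b, 27.5 for CD9 and 38 for I-A/I-E, on the same side of the other C1q+ cells as in all gated ones. These values are a description with no test.

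**Figure D5:**
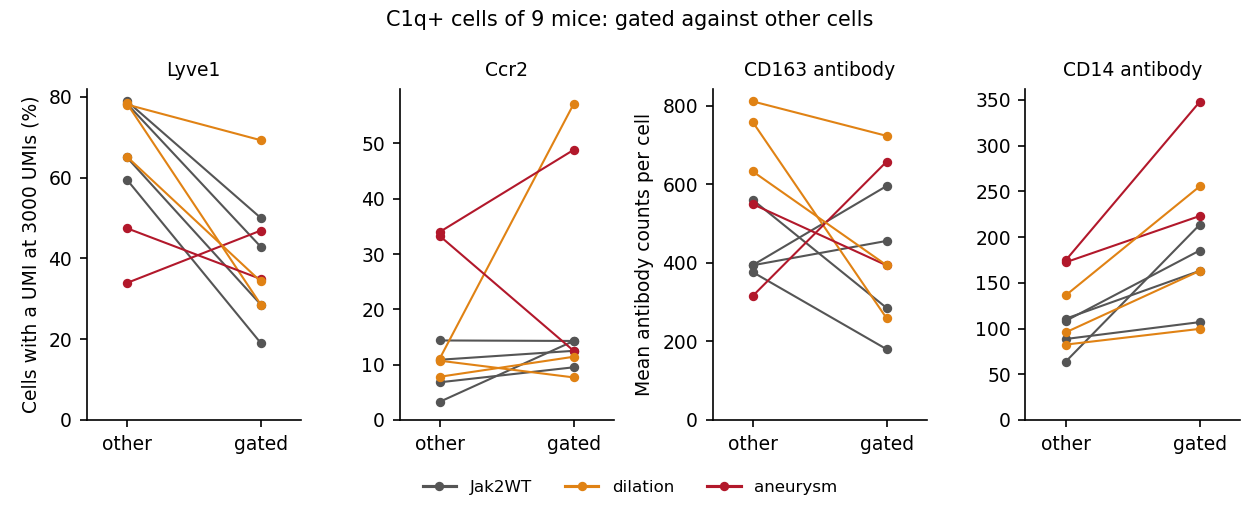
C1q+ cells of the 9 mice with at least 5 gated C1q+ cells, as 1 line per mouse from other to gated cells: share with a Lyve1 or Ccr2 UMI after thinning to 3000 UMIs (%), and mean CD163 and CD14 antibody counts per cell. The Lyve1 line falls in 8 of 9 mice, the CD14 line rises in all 9, and Ccr2 and CD163 go both ways.

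Saa3 and Prg4, an acute-phase gene and the lubricin gene, marked a subset of gated C1q+ cells in a pair of mice. At least 20 UMIs of Saa3, Prg4 and Alox15 were counted in 38 of the 174 gated C1q+ cells (21.8%), against 7.57% of other C1q+ cells. Of the 38, 15 came from mouse 5 and 20 from mouse 10, and 11 were multi-gene cells. The list of group 2 innate lymphoid cells (ILC2) also had at least 20 UMIs in 20 of the 174 (11.5%, against 2.11%). Of these 20, 6 came from mouse 5 and 9 from mouse 10. Gated C1q+ cells were deeper, with a median of 21395 against 11653.5 UMIs in other C1q+ cells, and the part of depth in these shares was not tested. Saa3 was at 2031 CPM in Mki67-only C1q+ cells, 684 CPM in multi-gene C1q+ cells and 451 CPM in other C1q+ cells. Lyve1 was at 671, 305 and 954 CPM in the same order, so its pooled level was lowest in the multi-gene cells. These levels pool cells of mice that differ in Lyve1, and the part of each mouse in the order was not tested. The part of the Saa3 subset in the CD11b medians above was not tested, but mice 5 and 10 had the mean CD11b counts of 1570 and 1748 per gated C1q+ cell, against 250.5 to 1232 in the other 7 mice.

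Gated Cd3e+ cells numbered 55 of 760 Cd3e+ cells (7.24%), and 42 of them came from 2 mice: 25 from mouse 3 and 17 from mouse 10. Mice 4, 6 and 9 gave 3, 4 and 4, mice 5 and 7 gave 1 each, and mice 1, 2 and 8 gave none. All 55 were multi-gene cells. Top2a was counted in 94.5% and Pclaf in 90.9% of them, and Hist1h1b was at 2892 CPM, the highest of the lineages with more than 1 gated cell.

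Genes of immature thymic T cells were common in them. Rag1, which cuts antigen receptor genes, was counted in 41 of 55 (74.5%), against 16.0% of other Cd3e+ cells, and Dntt, which adds bases at the joints, in 47 (85.5%), against 15.6%. Both Cd4 and Cd8a were counted in 28 (50.9%), against 12.3% of other Cd3e+ cells, and 15 of the 28 came from mouse 3. Cd8a without Cd4 was counted in 18, Cd4 without Cd8a in 3 and neither in 6. Ptcra, the pre-T cell receptor chain, was at 53.8 against 3.61 CPM, whereas Trac, the constant region of the mature alpha chain, was at 155 against 382 CPM (pooled cells). Trdc, the constant region of the delta chain, which immature T cells can also transcribe, had at least 2 UMIs in 24 of 55 gated cells (43.6%, against 15.7%), 13 of 25 against 3 of 136 in mouse 3 and 7 of 17 against 13 of 106 in mouse 10. Its pooled level was 145 against 284 CPM, the reverse of the shares. The gamma-delta T cell list, which holds Trdc, had at least 10 UMIs in 5 of 55 gated cells (9.09%, against 13.9%). The natural killer list had at least 10 UMIs in 6 of 55 (10.9%, against 1.42%). The monocyte list had at least 20 UMIs in 4 of 55 (7.27%, against 2.13%). Gated Cd3e+ cells were deeper, with a median of 13778 against 7281 UMIs, so the shares were also taken with each cell thinned to 3000 UMIs. Rag1 was then counted in 49.1% of gated and 15.3% of other Cd3e+ cells, Dntt in 70.9% and 15.04%, and both Cd4 and Cd8a in 21.8% and 10.2%. At least 2 Trdc UMIs then remained in 7.27% of gated and 13.8% of other Cd3e+ cells, the order of its CPM. Within mice the thinned Trdc share went both ways, at 16% against 1.47% in mouse 3 and 0% against 10.4% in mouse 10. Pooled levels were 388 against 198 CPM for Rag1, 698 against 113 CPM for Dntt, 561 against 183 CPM for Cd8a and 98.3 against 80.4 CPM for Cd4. Because mice 3 and 10 gave most of these cells, the shares were also taken within them. Rag1 was counted in 20 of 25 gated and 36 of 136 other Cd3e+ cells of mouse 3, and in 12 of 17 and 33 of 106 of mouse 10. Dntt was counted in 25 of 25 and 37 of 136 in mouse 3, and in 12 of 17 and 32 of 106 in mouse 10. Both Cd4 and Cd8a were counted in 60% of gated and 20.6% of other Cd3e+ cells of mouse 3, but in 35.3% and 25.5% of mouse 10. After thinning, Rag1 was counted in 52% against 25.7% in mouse 3 and 58.8% against 30.2% in mouse 10, Dntt in 88% against 27.2% and 58.8% against 29.2%, and both Cd4 and Cd8a in 24% against 14.7% and 23.5% against 22.6%. Dntt and Rag1 thus had a higher share in gated cells of both mice with or without thinning, and Cd4 with Cd8a differed mainly in mouse 3. At least 3 Rag1 or Dntt UMIs were counted in 46 of 55 gated Cd3e+ cells, against 4 of 174 gated C1q+ cells and 0 of 42 gated MHC-II high cells, whose UMI depth was higher.

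The antibodies gave the same cells a distinct surface. The median count was 35 against 1 for CD8a, 14 against 1 for CD4 and 59 against 5 for CD24 in gated and other Cd3e+ cells. It was 44 against 84 for CD5, 1 against 12 for CD44, 0 against 3 for TCRbeta and 0 against 4 for CD3. These medians pool cells over mice, with most gated ones from mice 3 and 10, and medians within mice are not given. High CD4, CD8a and CD24 beside low TCRbeta, CD3 and CD44 went with the Rag1 and Dntt transcripts. The summed level of the thymocyte list over all gated cells of a mouse was 1790 CPM in mouse 3, 720 CPM in mouse 10, 590 CPM in mouse 6 and 495 CPM in mouse 4, and between 2.63 and 221 CPM in the other mice. In other kept cells it also ranged widely over mice, from 36.9 to 585 CPM. Whether these cells lay in the aortic wall was not tested.

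Gated MHC-II high cells numbered 42 of 458 (9.17%), with 11 in mouse 7, 9 in mouse 2 and 5 each in mice 1 and 9. Cd209a, a lectin gene of cDC2 dendritic cells, was counted with at least 3 UMIs in 24 of them (57.1%), against 47.8% of other MHC-II high cells. Xcr1 or Clec9a, genes of cDC1 dendritic cells, had at least 3 UMIs in 10 (23.8%, against 19.2%), and 5 of the 10 came from mouse 2. Flt3, the growth factor receptor of dendritic cell precursors, had at least 3 UMIs in 15 (35.7%, against 17.3%), and Ccr2 in 33 (78.6%, against 67.8%). The depth of gated cells, with a median of 25258.5 against 16443.5 UMIs, moves with these shares, and its part was not tested. On the CPM scale, which takes depth into account, Flt3 was at 67.3 against 68.3 CPM and Cd209a at 549 against 549 CPM (pooled cells). Lyve1 was near absent (6.37 CPM), and Csf1r was at 64.6 CPM against 636 CPM in gated C1q+ cells.

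Of the 26 gated cells of none of these lineages, 16 came from mice 9 and 10. Neutrophil precursor genes such as Elane and Prtn3, which encode granule proteases, had at least 20 UMIs in 7 cells (26.9%, against 1.49% of other cells of this kind), 4 of mouse 9 and 3 of mouse 10. Elane was at 1149 CPM in gated cells and listed at 0 UMIs in the other 669 cells. The monocyte genes Ly6c2, Plac8, Chil3 and Hp had at least 20 UMIs in 11 cells (42.3%, against 6.43%), 6 of them from mouse 9, and natural killer genes such as Ncr1 and Gzma had at least 10 UMIs in 6 cells of mice 1, 6, 7 and 9 (23.1%, against 11.2%). Stem and progenitor genes had at least 10 UMIs in 6 cells (23.1%, against 23.6%). Mast cell genes had at least 20 UMIs in 1 cell, of mouse 6 (3.85%, against 4.93%). Fibroblast, endothelial and muscle genes had at least 20 UMIs in 2 cells, of mice 9 and 10 (7.69%, against 7.62%), and erythroid genes at least 100 UMIs in 2 cells, of mice 3 and 9 (7.69%, against 4.78%). These marker counts can overlap in a cell. The median depth was 20136 UMIs in gated and 6079 UMIs in other cells of this kind, and its part in these shares was not tested.

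The genotype and aneurysm comparisons ask whether myeloid Jak2V617F changes how many aortic leukocytes divide, and in which lineage. The gated share was 5.39 ± 1.42% in Jak2V617F Myel and 5.19 ± 1.25% in Jak2WT mice (n = 5 each, two-sided exact permutation test, p = 0.810). It was 5.74 ± 1.13% in the 2 aneurysm mice and 5.17 ± 1.34% in the other 8 (exact permutation test, p = 0.689), and 5.15 ± 1.78% in the dilation mice (n = 3, exact permutation test against Jak2WT, p = 0.964). No share differed beyond its spread, and the genotype difference of 0.200 percentage points was −0.482 with the multi-gene cells.

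Within the C1q+ lineage, 5.16%, 4.19%, 4.40%, 1.25% and 7.00% of cells were gated in Jak2WT mice 1 to 5. In Jak2V617F Myel mice 6 to 10 the shares were 3.93%, 6.35%, 6.22%, 7.25% and 7.25%. Of the 5 mutant mice, 4 were above 6%, as was Jak2WT mouse 5, so the groups overlapped. The means were 6.20 ± 1.36% and 4.40 ± 2.08% (exact permutation test, p = 0.159, adjusted p = 0.397 over 5 lineages), and 6.80 ± 0.638% in aneurysm against 4.93 ± 1.95% in other mice (exact permutation test, p = 0.222, adjusted p = 0.868). The C1q+ genotype difference of 1.80 percentage points was 0.638 with a gate of 10 UMIs and 0.931 with multi-gene cells, 1.01 without mouse 4 and 2.45 without mouse 5. The C1q+ aneurysm difference of 1.87 ran from 0.709 to 4.38 under other settings. Among MHC-II high cells, over mice with at least 20 kept cells of the lineage, the gated share was 7.07 ± 3.52% in 5 Jak2V617F Myel and 16.6 ± 10.5% in 3 Jak2WT mice (exact permutation test, p = 0.125, adjusted p = 0.397). That difference of −9.53 percentage points was −5.92 without mouse 1 and −15.6 without mouse 5. Among Cd3e+ cells it was 5.36 ± 5.75% in 5 Jak2V617F Myel and 4.36 ± 7.50% in 4 Jak2WT mice (exact permutation test, p = 0.825, adjusted p = 1).

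C1q+ cells made up 63.8 ± 11.4% of gated cells in Jak2V617F Myel and 43.6 ± 28.5% in Jak2WT mice (n = 5 each, exact permutation test, p = 0.190). Jak2WT mouse 5 had the highest share of all, at 87.5%, and without it the difference was 31.2 percentage points (exact permutation test, p = 0.0238). Gated cells with more S phase than G2 and mitosis UMIs were 45.0 ± 11.6% in Jak2V617F Myel and 47.2 ± 3.22% in Jak2WT mice (exact permutation test, p = 0.738). This share counts the Mki67-only cells, whose cycle transcripts lay at the level of cells outside the gate. With the multi-gene cells it was 37.9 ± 9.21% and 39.8 ± 11.2% (exact permutation test, p = 0.762).

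No gene passed the genotype test in gated cells. With UMIs summed per mouse, 0 of 5620 genes (0%) had an adjusted p below 0.05 between 5 Jak2V617F Myel and 5 Jak2WT mice by edgeR's quasi-likelihood test, and DESeq2 also called 0. Before adjustment 173 genes (3.08%) had p below 0.05, and the genotypes did not overlap in 29 (0.516%). Of the 33 S phase genes tested, 1 had a positive log2 fold change (median −0.37, against −0.03 over all genes), and of the 43 G2 and mitosis genes 26 had (median 0.06). In C1q+ cells alone 0 of 3501 genes (0%) were called by edgeR or DESeq2 in 5 Jak2V617F Myel and 4 Jak2WT mice, and 122 (3.48%) had p below 0.05 before adjustment, with no overlap of genotypes in 51 (1.46%). There 17 of 20 S phase genes had a positive log2 fold change (median 0.33, against −0.01 over all genes) and 5 of 31 G2 and mitosis genes had (median −0.34). None of these list members was called, and the S phase signs differed between all gated cells and C1q+ cells. In all gated cells the S phase list summed to 6775 and 5809 CPM in Jak2WT mice 3 and 4, where Cd3e+ cells were 71.4% and 50% of gated cells. It summed to 4105, 2950 and 1061 CPM in Jak2WT mice 1, 2 and 5, and to 2610 to 3817 CPM in Jak2V617F Myel mice. The part of lineage make-up in these signs was not tested. Antibodies on gated C1q+ cells gave 0 of 53 called (0%), and 5 (9.43%) with p below 0.05 before adjustment, in edgeR. The added split into multi-gene cells gave 4 called antibodies, out of at most 73 with counts, from 5 Jak2V617F Myel and 2 Jak2WT mice. The number tested there and the names and directions of the 4 are not given, so nothing is read from this count. Those Jak2WT mice were mice 3 and 5. In the fit of all gated C1q+ cells, the CD5 antibody of mouse 3 stood at 48547 normalised counts, against at most 6421 in the other mice. CD5 was not called in that fit (adjusted p = 0.550, edgeR's quasi-likelihood test).

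AA467197 was the 1 gene called between aneurysm and the other mice in gated C1q+ cells. The gene, also named Nmes1, lies at chr2:122636986-122641191 on the plus strand (GRCm38, GENCODE vM21). Its level was 120 CPM in mouse 7 and 180 CPM in mouse 9 with aneurysm. It was 0, 8.43, 27.8 and 2.05 CPM in Jak2WT mice 1, 2, 3 and 5, 0 CPM in mouse 6, 12.9 CPM in mouse 8 and 1.24 CPM in mouse 10. Both aneurysm mice lay above all 7 others, as 265 genes (5.94%) did in either direction. Only the aneurysm mice held AA467197 above 27.8 CPM, so the filter on low counts may have kept it through them alone. The log2 fold change was 4.60 (SE 0.613, adjusted p = 0.0364, edgeR's quasi-likelihood test), and 1 of 4460 genes was called (0.0224%), with 333 (7.47%) below 0.05 before adjustment. DESeq2 and the fit of all 3 groups each called 0 genes, and 198 were called with no filter on low counts, where more genes were tested. The call of AA467197 was lost when any one of mice 1, 2, 5, 7, 8, 9 or 10 was left out, with an adjusted p of 0.233 without mouse 7 and 0.999 without mouse 9.

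Inflammatory macrophage genes lay on the same side without being called. The 5 tested genes of that list, which include Spp1 and Il1b, had positive log2 fold changes in aneurysm (median 1.12, against −0.06 over all genes). Only 3 of the list were tested by genotype in gated C1q+ cells. Genes high only in aneurysm may therefore have entered here through the low-count filter. The signs in this paragraph are a description only. Spp1, which encodes the secreted protein osteopontin, was at 698 CPM in aneurysm and 42.9 CPM in the other mice (log2 fold change 4.04, adjusted p = 0.313, edgeR). C1q+ cells outside the gate also differed in kind. After thinning, a Ccr2 UMI was counted in 33.3% (mouse 7) and 34.0% (mouse 9) of them, against 3.29% to 14.4% in the other mice. For Lyve1 it was 33.9% and 47.5%, against 59.5% to 78.9%. Among cycle genes, 24 of 28 S phase genes and 11 of 37 G2 and mitosis genes had positive log2 fold changes (medians 0.34 and −0.11), and 0 were called. The Saa3, Prg4 and Alox15 list had 3 of 3 genes with negative values, none called, and most gated cells with these genes came from mice 5 and 10.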

How the data were processed

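Aortic CD45+ cells of 10 mice were read in 1 run. The authors aligned the reads to mm10 with Cell Ranger and deposited raw UMI counts of 32285 genes, 75 antibodies (73 with counts) and 10 hashtags for 8471 shared barcodes. Per the labels, Seurat 3.0.0 was also used. Mice were assigned by the hashtag list in the labels. The ratio rule kept 7196 barcodes, the mitochondrial limit 6098 and the depth limit 5348, with 1670685 to 13846376 gene UMIs per mouse. Doublets were removed by the hashtag ratio alone, which cannot find doublets of 1 mouse, and HTODemux (Seurat 5.3.0, quantile 0.99) was an alternative. The lineage gates were applied in the order C1q+, Cd79a+, Cd3e+, MHC-II high. Tests of the gated share within a lineage used mice with at least 20 kept cells of the lineage. Tests of the make-up of gated cells used mice with at least 5 gated cells. Levels in gated C1q+ cells and the paired Lyve1 and Ccr2 tests used mice with at least 5 gated C1q+ cells.

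Shares were compared over mice by exact permutation tests, or sign-flip tests within mice, two-sided, with Benjamini-Hochberg adjustment over lineages (Python 3.11.15, scipy 1.17.1). With 5 against 5 mice the smallest possible p was 0.00794, and with 2 against 8 it was 0.0222. Counts summed per mouse were tested with edgeR 4.0.16 (quasi-likelihood, TMM, low counts filtered), checked on simulated data, with DESeq2 1.42.0 as an alternative (R 4.3.3). CPM values are UMIs per 1000000 gene UMIs of the cells named. Alternatives changed the gate, the hashtag, mitochondrial, depth and lineage limits, thinning, the count filter and scaling, and left out each mouse. The multi-gene cells and the removal of mice 3 and 10 or 5 and 10 were added after the data were seen. Genes named were the rule genes, Pclaf, Jak2, Lyve1, Ccr2, Csf1r, lineage genes, the 4 genes with the highest mean CPM of each cell-cycle list, and called genes whose mice did not overlap. Further genes were taken from the cell type lists to describe a lineage. The cells, lists and comparisons were chosen with earlier results of these data known. UMI counts do not show which cells carried the Jak2V617F allele.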

Additional observations from a re-analysis of the deposited data

Results flagged for a closer look

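In 39 groups of mice the highest and lowest mouse were compared with the rest, of which chance alone marks about 1 in 20, and 3 groups held a mouse that stood apart, mouse 3 in 1 group and mouse 10 in the other 2. Among Jak2WT mice with at least 20 Cd3e+ cells, mouse 3 had 15.5% gated Cd3e+ cells, and the other 3 mice had 0% to 1.92%. Mouse 4, with 3 gated of 15 Cd3e+ cells, had too few to enter. Mouse 10 held the single gated Cd79a+ cell, so that 0.9901% of its Cd79a+ cells were gated and 1.69% of its gated cells were Cd79a+, while both shares were 0% in the other Jak2V617F Myel mice. No difference between genotypes among 7 paired quantities had a p below 0.05 (exact permutation test). The nearest was the Cd79a+ difference of gated minus other cells, with a mean of −8.36 in Jak2V617F Myel and −17.5 percentage points in Jak2WT mice (exact permutation p = 0.0635, n = 5 each).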

How the results depend on the processing

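Of 600 values of 26 results under other settings, 530 kept their direction and side of the threshold, and 46 changed sign, 0 of them with p under 0.05. Differences are in percentage points, with the exact permutation tests of the report, and causes were not tested. The genotype difference in the gated share was −0.597 with a gate of 10 UMIs, −0.00163 after thinning, −0.496 with 5 UMIs per 10000, −0.0263 with 5000 UMIs per cell, −0.525 without mice 5 and 10 and −0.482 with multi-gene cells. The aneurysm difference was −0.450 with a gate of 10 UMIs and −0.0258 with 5 UMIs per 10000. The dilation difference was 0.172 with a gate of 3 UMIs, 0.147 with a hashtag ratio of 5, 0.0720 with a 5% mitochondrial limit and 0.0885 with 2000 UMIs per cell. Within Cd79a+ cells thinning gave −0.591 for genotype and 0.811 for aneurysm. Within Cd3e+ cells the aneurysm difference was 0.275 without mice 3 and 10, and the genotype difference −1.93 without mice 5 and 10. Within cells of none of the lineages, aneurysm gave −1.04 with a gate of 3 UMIs and −1.16 after thinning, and genotype 0.0918 with other lineage gates. In the make-up of gated cells, the C1q+ difference was −5.27 with a gate of 10 UMIs, −4.13 with 5 UMIs per 10000, −4.59 with 5000 UMIs per cell, −2.48 without mice 5 and 10 and −8.16 with multi-gene cells, and the Cd3e+ difference −0.734 without mice 3 and 10. MHC-II high cells passed with a gate of 3 UMIs (12.0) and cells of none of the lineages with other lineage gates (−6.80). The S phase share difference was 0.687 with a gate of 3 UMIs and 0.368 with a hashtag ratio of 5. The Lyve1 difference missed the threshold in HTODemux singlets (−20.6), without mice 3 and 10 (−23.4) and without mice 5 and 10 (−22.7).

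Leaving out 1 mouse at a time moved the gated share difference from −0.252 to 0.689 for genotype, from −0.239 to 1.36 for aneurysm and from −1.05 to 0.601 for dilation. Within lineages it ran from −1.12 to 4.72 for Cd3e+ cells by genotype, and for none of the lineages from −1.36 to 1.58 by genotype and from −1.51 to 4.35 by aneurysm. Make-up differences ran from −2.16 to 7.00 for C1q+, from 1.00 to 7.41 for Cd3e+, from 8.21 to 13.7 for MHC-II high and from −7.44 to −5.07 for none of the lineages. The C1q+ share among gated cells ran from 13.5 to 31.2, and the S phase share from −5.59 to 2.42. Genes called for aneurysm in C1q+ cells numbered 0 to 2 without 1 mouse, 0 with DESeq2, with the fit of all 3 groups or without mice 5 and 10, 198 with no filter on low counts, 6 with at least 10 cells per mouse and 2 with multi-gene cells. The number of genes tested can differ between these settings, so these counts are not shares. Over all settings the adjusted p of AA467197 ran from 9.38e-14 with no filter to 0.999 without mouse 9. Antibodies called by genotype numbered 4 with multi-gene cells, out of at most 73 with counts. No paired analysis was possible because the mouse numbers do not pair mice across genotypes. Lineage tests rest on few gated cells per mouse, and a mouse with aneurysm has only 1 other of its kind.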

Other observations

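Marker lists of other cell types went both ways in gated cells, as descriptions with no test. Lists with a higher mean summed level in gated cells were the monocyte list (490 ± 547 against 268 ± 117 CPM, n = 10 mice), the cDC1 list (377 ± 325 against 292 ± 84.4 CPM), the thymocyte list (398 ± 557 against 163 ± 167 CPM, with 8 of 8 genes higher), the T cell list (1399 ± 1871 against 744 ± 503 CPM), the NK cell list (228 ± 310 against 121 ± 134 CPM), the neutrophil precursor list (749 ± 1495 against 167 ± 173 CPM) and the Saa3, Prg4 and Alox15 list (1501 ± 2832 against 750 ± 963 CPM). The inflammatory macrophage list (2104 ± 1162 against 1713 ± 1122 CPM), the neutrophil list (1789 ± 3818 against 1764 ± 1044 CPM) and the cDC2 list (705 ± 439 against 726 ± 165 CPM) had closer means. But the neutrophil list in gated cells was at 10773 CPM in mouse 9 and 6864 CPM in mouse 10, and at 14.9 to 67.2 CPM in the other mice. Its lowest mouse among other kept cells was at 258 CPM. The neutrophil precursor list in gated cells was likewise highest in mice 9 and 10 (3666 and 3498 CPM), with 0 to 205 CPM in the other mice. The macrophage list was at 1903 ± 864 against 3335 ± 374 CPM and the resident macrophage list at 3053 ± 1618 against 5115 ± 1052 CPM. The summed B cell list was at 137 ± 60.2 CPM in gated and 869 ± 546 CPM in other kept cells (n = 10 mice), the stem and progenitor list at 53.6 ± 40.3 against 143 ± 84.3 CPM, the ILC2 list at 186 ± 136 against 296 ± 121 CPM, and the gamma-delta T cell list at 23.2 ± 42.7 against 65.7 ± 42.7 CPM. Plasma cell genes were at 124 ± 30.2 against 202 ± 45.1 CPM and platelet genes at 6.91 ± 14.4 against 15.8 ± 34.7 CPM. The B cell precursor list, which holds Rag1, Rag2 and Dntt, was at 162 ± 263 against 64.6 ± 68.3 CPM. Globin and other erythroid genes were at 1879 ± 4568 against 6509 ± 2538 CPM, with 14391 CPM in gated cells of mouse 3. Mast cell genes were at 134 ± 351 against 291 ± 203 CPM. Fibroblast, endothelial and muscle genes were at 104 ± 254 against 476 ± 464 CPM, with 826 CPM in gated cells of mouse 9.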
